A study of Mus musculus with 6 samples.

Results

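The odorant receptor genes of mouse chromosomes 1 and 16 were described in the olfactory epithelium of mice whose olfactory bulb had degenerated. They comprised every gene of the authors' receptor table that lies on either chromosome and is not annotated as a pseudogene, with Olfr16 left out by rule. This gave 61 receptors, 25 on chromosome 1 and 36 on chromosome 16, of 1162 in the receptor table. The choice used position and gene type only, and no expression value. Also outside the set were 3 receptor pseudogene models on chromosome 1 and 4 on chromosome 16.

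Bulk RNA-seq libraries came from 2 groups of 3 mice, all c57Bl6/ICR crossbred, labelled male and 3 months old. The sFlt1 mice combined the camk2a-tTA driver, which is active in forebrain neurons, with the tet-sFlt1 transgene for sFlt1, the soluble form of the VEGF receptor Flt1, which captures the ligand. Tetracycline, which holds the transgene silent, was withdrawn at embryonic day 13.5, and MRI at 2 months put the remaining bulb at 28%, 29% and 14% of normal size in sFlt1 replicates 1, 2 and 3. The control mice are labelled WT and untreated, with normal bulbs. RNA came from the dissected nasal conchae, a tissue that holds sensory, supporting, basal, respiratory and other cells. The comparison asks what loss of the bulb, the target of the sensory axons, leaves of the receptor messages. By their labels the groups also differ in genotype and tetracycline treatment, which this design cannot tell apart from loss of the bulb.

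Odorant receptors are G protein-coupled receptors in the cilia of olfactory sensory neurons. Each mature neuron expresses a single receptor gene from a single allele, and neurons sharing a receptor send their axons to the same glomeruli of the bulb. The level of a receptor message in whole epithelium therefore reflects both how many neurons chose that receptor and how much message each holds. In such libraries fewer cells and less RNA per cell cannot be told apart. The receptor genes lie in clusters of related copies and are grouped into families (MOR numbers) by sequence. Ligands of the receptors named here are not given in the deposited tables, and each is described as a receptor of its family.

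Library totals ranged from 28832424 to 46444862 counts, and summed receptor counts from 74429 to 208572. Relative to the scaled library size, all receptors together came to 2612, 4470 and 1738 CPM (counts per 1000000 counts) in sFlt1 replicates 1, 2 and 3, against 6186, 6385 and 4357 CPM in control replicates 1, 2 and 3. The receptor sum of sFlt1 replicate 2 was above that of control replicate 3, so the groups overlapped. Xist, the RNA of the inactive X chromosome, was at 523.7 CPM in sFlt1 replicate 3 and at 709.9 CPM in control replicate 1, which goes against their label male, and at 0.371 CPM or less in the other 4 libraries. Omp, the marker of mature sensory neurons, was at 465.8 CPM or more in all 6 libraries. Control replicate 3 held more brain neuron transcripts than the other controls. Flt1 itself, whose endogenous and transgenic messages the gene counts do not separate, was at 6.19 ± 3.72 CPM in sFlt1 mice and 5.86 ± 4.53 CPM in controls (SD, n = 3 each). The labels do not say whether the transgene is active in the sampled tissue, so this gene does not check the labels.

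By the deposited coordinates (GRCm39), the genes formed 6 clusters, parted wherever the starts of neighbouring receptors lay more than 1000000 bases apart. On chromosome 1, cluster A (chr1:92403647-92551134) held 8 genes of families MOR103 and MOR208, and cluster B (chr1:172955616-174278843) held 17 genes of families MOR103, MOR105, MOR123 and MOR267. On chromosome 16, cluster C (chr16:3408906-3662611) held Olfr161 and Olfr15, the single members here of MOR131 and MOR256. Olfr19, of MOR140, stood alone at chr16:16490092-16494269 and is cluster D. Cluster E (chr16:19102854-19448666) held 8 genes of MOR270, MOR271, MOR272, MOR273 and MOR279. Cluster F (chr16:58579907-59184356) held 25 genes of MOR182, MOR183 and MOR184, 22 of them on the minus strand. A MOR family could be given to 60 of the 61 genes, in 16 families. None lies in the class I receptor block, which is on chromosome 7.

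How alike the neighbours are can be read from the coding sequence. Most odorant receptors carry the residues Asp-Arg-Tyr at the inner end of the third membrane-spanning helix, where the receptor meets its G protein. In the annotated coding sequences (GENCODE vM21, build GRCm38, whose positions differ from those of the count table), 51 of the 61 genes spelled exactly 1 such run, with 31 distinct stretches of 30 bases around it. Shown are 5 of these stretches, carried by genes whose values are compared in the results (that of Olfr186 is also the stretch of Olfr187), with the 9 bases of Asp-Arg-Tyr in capitals.
Olfr186 (chr16:59027525-59027554, minus): atggcctatGATCGCTATgtagccatatgc
Olfr1408 (chr1:173130835-173130864, minus): atgggttatGATCGCTATgtggccatctgc
Olfr220 (chr1:174448991-174449020, plus): atggcctttGATCGCTATgtagccatttgc
Olfr15 (chr16:3839326-3839355, plus): atggcatttGATCGGTATgtggcagtttgt
Olfr424 (chr1:174137097-174137126, plus): atggctattGACAGGTATgttgccatctgt

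The Olfr186 stretch was shared by 5 genes, including Olfr187 and Olfr196. Olfr1408 shared its stretch with Olfr1406. Olfr220, Olfr15 and Olfr424 each had a stretch found in no other member. Of the 10 other genes, 9 spelled no such run, among them all 5 of MOR208, Olfr161 and Olfr166. Olfr203 was set apart without a settled number of runs. It either spelled more than 1 run or had an annotated coding block without a leading ATG, which was not searched.

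Near-identical stretches limit how well reads can be assigned. Of the 61 genes, 46 shared at least 1 run of 50 bases with another receptor, and 15 shared over 10% of their runs. The share was 40.8% for Olfr170, 34.6% for Olfr203, 29.2% for Olfr171 and 19.4% for Olfr169, whose values are therefore uncertain. Olfr168 shared 17.9% of its runs and Olfr166 8.85%, each with the other, so their values are also less certain. The share was 0.48% for Olfr161 and 0.862% for Olfr187, and no run of Olfr15, Olfr220 or Olfr424 was shared. The neighbours Olfr170 and Olfr169 are identical over the 201 coding bases shown, and Olfr171 has 2 mismatches, in capitals, so a read within the stretch cannot be placed between the first pair.
Olfr170 (chr16:19606277-19606477, minus): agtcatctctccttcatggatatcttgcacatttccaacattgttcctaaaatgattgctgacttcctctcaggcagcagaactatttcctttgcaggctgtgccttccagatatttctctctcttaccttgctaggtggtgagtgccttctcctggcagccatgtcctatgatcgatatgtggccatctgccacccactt
Olfr171 (chr16:19624709-19624909, minus): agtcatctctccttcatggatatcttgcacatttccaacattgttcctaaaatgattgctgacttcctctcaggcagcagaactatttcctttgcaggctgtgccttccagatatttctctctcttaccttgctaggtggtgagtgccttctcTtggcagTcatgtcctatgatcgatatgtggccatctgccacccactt

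Summed over the chromosome 1 receptors, raw counts were 1998, 4810 and 2222 in sFlt1 replicates 1, 2 and 3, against 6164, 4256 and 4160 in control replicates 1, 2 and 3. Scaled for library size, these were 70.1, 105 and 51.1 CPM in sFlt1 mice, against 183, 152 and 93.0 CPM in controls. The means were 75.4 ± 27.3 CPM in sFlt1 mice and 142 ± 45.6 CPM in controls (SD, n = 3 each), so the sFlt1 level was 52.9% of the control level. The groups overlapped, since sFlt1 replicate 2 lay above control replicate 3.

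For chromosome 16, raw counts were 4182, 10464 and 3027 in sFlt1 replicates 1, 2 and 3, against 11419, 6474 and 10872 in control replicates 1, 2 and 3. The scaled sums were 147, 228 and 69.6 CPM in sFlt1 mice, against 339, 231 and 243 CPM in controls, with means of 148 ± 79.4 and 271 ± 59.1 CPM. Every sFlt1 mouse was below every control, although sFlt1 replicate 2 came close to control replicate 2. The sFlt1 level was 54.7% of control, beside 52.1% for all receptors of the series. The sums over chosen genes were given no test, and 3 mice against 3 could not give an exact permutation p below 0.1.

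**Figure D1:**
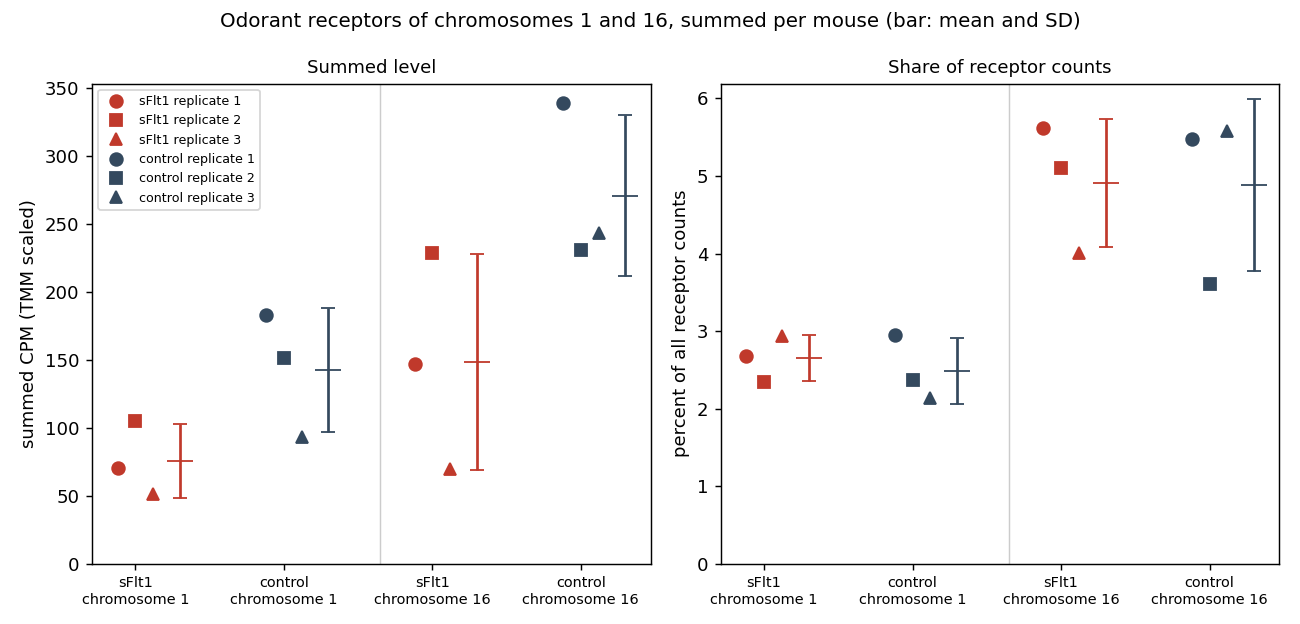
Summed level in CPM (left) and share of all receptor counts in percent (right) of the chromosome 1 and chromosome 16 odorant receptors, for each sFlt1 and control mouse, with the mean and SD of each group beside the points. The levels are lower in most sFlt1 mice, while the shares of both groups cover the same range.

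As a share of all receptor counts, neither chromosome differed between groups beyond the spread between mice. Chromosome 1 receptors took 2.68%, 2.35% and 2.94% of receptor counts in sFlt1 replicates 1, 2 and 3, against 2.96%, 2.37% and 2.13% in control replicates 1, 2 and 3. Chromosome 16 receptors took 5.62%, 5.11% and 4.004% in sFlt1 mice, against 5.47%, 3.61% and 5.58% in controls. The mean shares were 2.66 ± 0.296% in sFlt1 mice and 2.49 ± 0.422% in controls for chromosome 1, and 4.91 ± 0.825% in sFlt1 mice and 4.89 ± 1.11% in controls for chromosome 16 (SD, n = 3 each). No 95% Wilson interval, which covers counting error only, reached further than 0.168 percentage points from its share, so the spread between mice of a group was wider than counting error. The ratio of chromosome 1 to chromosome 16 counts was 0.557 ± 0.153 in sFlt1 mice and 0.527 ± 0.138 in controls. Shares were also taken for the 16 chromosomes with at least 5 receptors that are not pseudogene models. Of these, X, 6 and 13 were the ones whose shares did not overlap between groups, with X lower and 6 and 13 higher in sFlt1 mice.

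Tested against all genes, most receptors of both chromosomes had estimates below 0, and none passed the threshold of 0.05 on the adjusted p. All 61 passed the filter on low counts and were tested with edgeR's quasi-likelihood test among 19899 genes, of which 0.0% were called. At an unadjusted p under 0.05, 15 receptors were lower and 1 was higher in sFlt1 mice, which is 24.6% and 1.64% of them, beside 6.24% and 4.84% of all genes tested and 27.1% and 0.584% of all receptors tested. On chromosome 1, 22 of 25 estimates were below 0, with a median log2 fold change of -1.28. On chromosome 16, 34 of 36 were below 0, with a median of -1.09. Over all 1028 receptors tested, 89.1% of estimates were below 0 and the median was also -1.09, beside 48.7% and a median of 0.02 over all genes. The estimates of the members lay where those of receptors in general lay.

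DESeq2 called 9 of the 61 lower and 0 higher, beside 1.56% and 0.631% of all genes tested. Of all receptors it called 103 of 1046 lower, or 9.85%, and 0 higher, and 9 of 61 is 14.8%. By level, 19 receptors had every sFlt1 mouse below every control and 1 had every sFlt1 mouse above, which is 31.1% and 1.64%. The same held for 9.51% and 8.76% of all genes tested, and for 30.6% and 0.973% of all receptors tested. Without the pair of libraries with Xist reads, the medians were -0.70 on chromosome 1 and -0.52 on chromosome 16, beside -0.70 over all receptors. Without sFlt1 replicate 2, whose receptor level was the highest of its group, they were -1.53 and -1.90, beside -1.59, and without sFlt1 replicate 3 the chromosome 16 median was -0.67, beside -0.83.

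**Figure D2:**
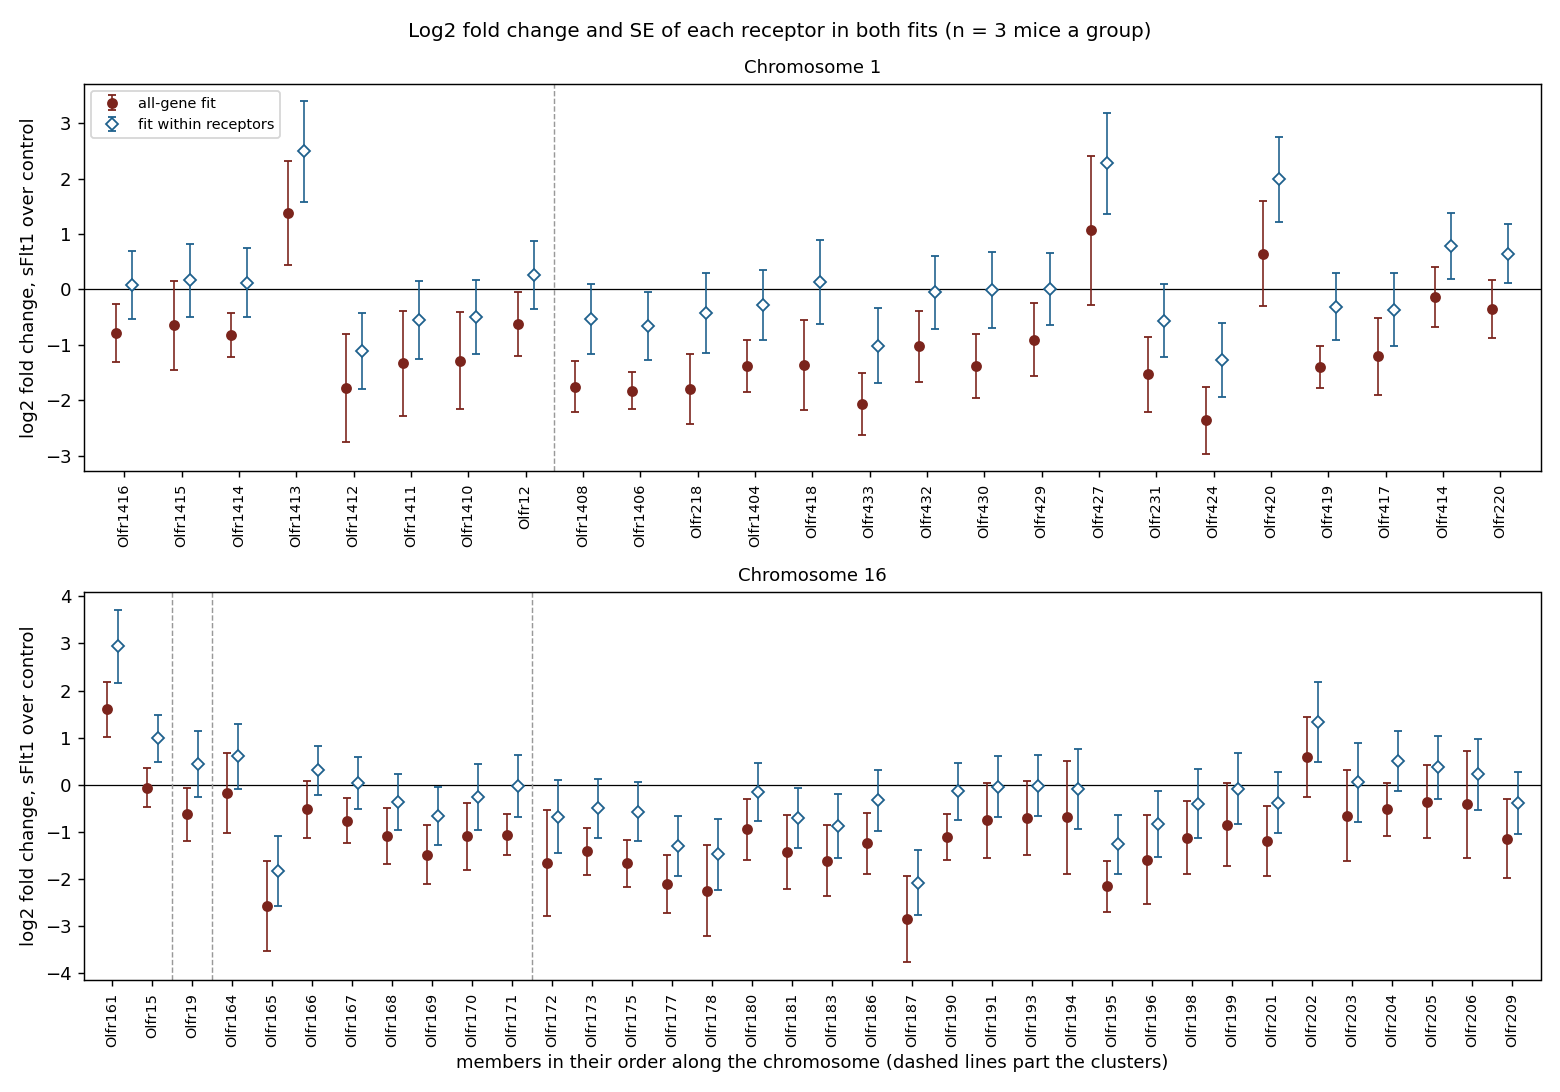
Log2 fold change of sFlt1 over control mice for each receptor of chromosome 1 (top) and 16 (bottom), in order along the chromosome, from the fit on all genes (filled circles) and the fit within receptors (open diamonds). Error bars are SE (n = 3 mice a group), dashed lines part the clusters, and most filled circles lie below 0 while the diamonds scatter around it.

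The chromosome 1 genes with the smallest p were Olfr1406, Olfr424, Olfr1408, Olfr433 and Olfr419, and 3 of these 5 belong to MOR267, the largest family on the chromosome. Olfr1406 (chr1:173009420-173018207) had 2.35, 3.45 and 4.25 CPM in sFlt1 replicates 1, 2 and 3, against 11.9, 12.3 and 11.5 CPM in control replicates 1, 2 and 3. The 3 controls lay close together, and every sFlt1 mouse was well below them. Its log2 fold change was -1.83 ± 0.34 (SE), the smallest p of all members at 0.000987 with an adjusted p of 0.43 by edgeR. DESeq2 gave an adjusted p of 6.54e-05, and over 12 alternatives the adjusted p ranged between 6.54e-05 and 0.797.

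Olfr1408, its neighbour with the same Asp-Arg-Tyr stretch, had 1.97, 3.06 and 3.47 CPM in sFlt1 mice, against 8.45, 14.5 and 5.81 CPM in controls. Olfr419, also of MOR267, had 3.23, 4.23 and 2.92 CPM in sFlt1 mice, against 8.84, 12.2 and 6.24 CPM in controls. In both genes every sFlt1 mouse was below every control, with log2 fold changes of -1.75 ± 0.46 and -1.39 ± 0.38 (SE, adjusted p of 0.43 each by edgeR). All 7 genes of MOR267 had estimates below 0, and 5 had no overlap between groups, beside 89.1% and 30.6% of all receptors tested. The family was described after it was seen to hold 3 of the 5 smallest p values of the chromosome. Their summed level was 15.3 ± 3.81 CPM in sFlt1 mice and 45.3 ± 11.1 CPM in controls, or 33.7% of control.

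Olfr424, of MOR105, had 0.491, 1.05 and 0.644 CPM in sFlt1 mice, against 4.39, 5.34 and 1.59 CPM in controls. Olfr433, of MOR123, had 0.737, 0.567 and 0.299 CPM in sFlt1 mice, against 2.17, 3.21 and 1.34 CPM in controls. Neither gene's groups overlapped, and the log2 fold changes were -2.36 ± 0.60 and -2.06 ± 0.56 (SE, adjusted p of 0.43 each by edgeR). DESeq2 called all 5 of these genes.

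On chromosome 16 the smallest p values belonged to Olfr195, Olfr177, Olfr175 and Olfr187, all in cluster F. Olfr195 (chr16:58967409-58971140), of MOR184, had 2.77, 5.26 and 3.24 CPM in sFlt1 replicates 1, 2 and 3, against 17.3, 6.91 and 26.1 CPM in control replicates 1, 2 and 3. The control mice differed among themselves more than the sFlt1 mice did, and control replicate 2 was close to sFlt1 replicate 2. Its log2 fold change was -2.15 ± 0.54 (SE, adjusted p = 0.43 by edgeR).

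Olfr177 (chr16:58691318-58695131), also of MOR184, had 1.51, 2.92 and 0.552 CPM in sFlt1 mice, against 8.04, 7.66 and 5.90 CPM in controls, with a log2 fold change of -2.11 ± 0.62. Olfr175, of the same family, had 1.54, 3.99 and 2.85 CPM in sFlt1 mice, against 12.9, 8.23 and 5.61 CPM in controls, with a log2 fold change of -1.67 ± 0.50. Olfr187 (chr16:58855926-58860130), of MOR183, had 0.632, 2.97 and 0.437 CPM in sFlt1 mice, against 17.9, 7.62 and 3.82 CPM in controls. This was the lowest estimate of all members, a log2 fold change of -2.85 ± 0.92. It was -4.20 without sFlt1 replicate 2, -2.06 without control replicate 1 and -1.65 without both libraries with Xist reads. For Olfr177 it was -2.81 without sFlt1 replicate 2. In each of these genes the groups did not overlap, sFlt1 replicate 2 was the highest of its group, and the adjusted p was 0.43 by edgeR, while DESeq2 called all 4 genes.

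The 8 genes of MOR184 had estimates below 0 in the fit on all genes and also in the fit within receptors, with medians of -1.66 and -0.69. Together they had 13.0, 33.5 and 11.5 CPM in sFlt1 mice, against 75.8, 51.8 and 55.8 CPM in controls. They took 0.497%, 0.750% and 0.661% of receptor counts in sFlt1 mice, against 1.22%, 0.811% and 1.28% in controls, and neither the levels nor the shares overlapped. The 6 genes of MOR183 were also below 0 in both fits, with medians of -1.42 and -0.58, but their shares overlapped between groups. The 10 genes of MOR182, in the same cluster, had medians of -0.68 and -0.02 and no gene whose groups were free of overlap. By level, every sFlt1 mouse was below every control in 4 genes of MOR184 and 2 of MOR183, beside 30.6% of all receptors tested. These families were described after their values were seen, and the differences between families were not tested.

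**Figure D3:**
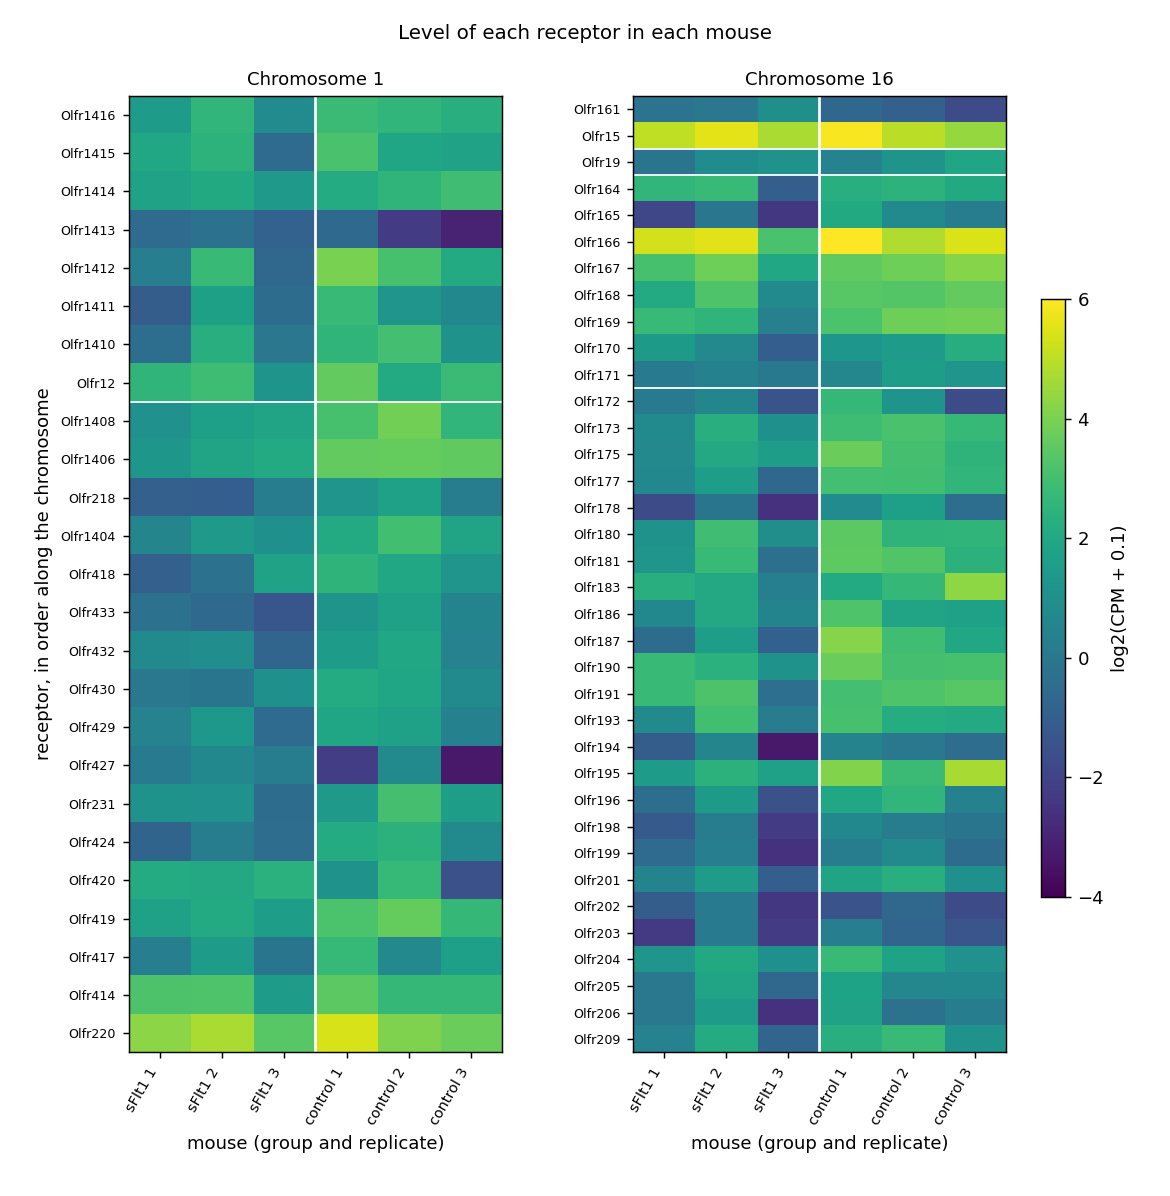
Level of each of the 61 receptors in each mouse, as log2 of CPM plus 0.1, with sFlt1 mice left of the white line and controls right of it, and white horizontal lines between clusters. Olfr15, Olfr166 and Olfr220 have the highest mean levels, and Olfr194 in sFlt1 replicate 3 and Olfr427 in control replicate 3 are at 0.

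Among the most abundant receptors of both chromosomes were several whose groups overlapped. Olfr15 (chr16:3648742-3662611) had 32.9, 48.2 and 26.3 CPM in sFlt1 replicates 1, 2 and 3, against 60.1, 31.1 and 21.2 CPM in control replicates 1, 2 and 3, and its log2 fold change was -0.07 ± 0.42 (SE). Olfr166 (chr16:19302444-19308632), of MOR270, had 39.7, 46.8 and 8.67 CPM in sFlt1 mice, against 65.9, 27.9 and 42.8 CPM in controls, with a log2 fold change of -0.52 ± 0.61. Its low value in sFlt1 replicate 3 stood apart from the other 5 mice. Olfr220 (chr1:174269648-174278843), of MOR103, had 19.3, 26.2 and 10.5 CPM in sFlt1 mice, against 41.8, 16.6 and 12.9 CPM in controls, with a log2 fold change of -0.35 ± 0.53.

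Olfr414, next to Olfr220 and of the same family, had 9.23, 9.45 and 2.71 CPM in sFlt1 mice, against 11.1, 6.27 and 6.15 CPM in controls, and its log2 fold change was -0.14 ± 0.54. In all of these genes the groups overlapped, and the sign of each estimate except that of Olfr166 changed when control replicate 1 was left out. Of the other abundant genes, Olfr12, Olfr167, Olfr168 and Olfr169 had log2 fold changes of -0.62 ± 0.58, -0.76 ± 0.47, -1.09 ± 0.60 and -1.48 ± 0.63 (SE), and in Olfr168 and Olfr169 every sFlt1 mouse was below every control. Without sFlt1 replicate 2 the value of Olfr168 was -1.88. Per kilobase of annotated exon, Olfr166, Olfr220 and Olfr15 averaged 8.81, 6.46 and 5.85 CPM over the 6 mice, beside a median of 1.28 over the 61 genes. Olfr195 and Olfr175, both of MOR184, came next on this scale of level, at 4.93 and 4.84 CPM per kilobase.

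The weight of Olfr15 within its chromosome was higher in sFlt1 mice. Olfr15 took 22.4%, 21.1% and 37.8% of the chromosome 16 counts in sFlt1 replicates 1, 2 and 3, against 17.7%, 13.5% and 8.72% in control replicates 1, 2 and 3. Every sFlt1 mouse was above every control. Olfr220 took 27.6%, 24.9% and 20.5% of the chromosome 1 counts in sFlt1 mice, against 22.9%, 10.97% and 13.9% in controls, where control replicate 1 lay inside the sFlt1 range. Olfr166 took 20.0 ± 7.30% of the chromosome 16 counts in sFlt1 mice and 16.4 ± 3.84% in controls (SD, n = 3 each).

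Within the receptor pool, the question is which receptors differed from the rest of the receptors. This second fit took each library's summed receptor counts as its size and tested 1059 receptors, of which 0.0% were called by edgeR, all 61 members being among those tested. At an unadjusted p under 0.05, 4 members were higher and 3 lower in sFlt1 mice, or 6.56% and 4.92%, beside 5.57% and 6.61% of all receptors tested. DESeq2 called 1 member, Olfr161, which was higher, beside 1.94% of receptors higher and 0.793% lower. The median log2 fold change was -0.05 on chromosome 1 and -0.21 on chromosome 16, beside -0.12 over all receptors tested. Estimates below 0 numbered 14 of 25 on chromosome 1 and 25 of 36 on chromosome 16, or 56% and 69.4%, beside 55.8% of all receptors tested. The sign of the chromosome 1 median was not stable, being 0.17 with TMM factors computed over receptors and 0.12 without control replicate 1.

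Olfr161 (chr16:3408906-3417187), of MOR131, was the member furthest above the controls. It had 22, 40 and 81 counts in sFlt1 replicates 1, 2 and 3, against 18, 12 and 9 counts in control replicates 1, 2 and 3. These were 2.96, 1.95 and 10.7 per 10000 receptor counts in sFlt1 mice, against 0.863, 0.669 and 0.462 in controls, so the groups did not overlap and sFlt1 replicate 3 was far above the other sFlt1 mice. Its log2 fold change within receptors was 2.94 ± 0.77 (SE), with an unadjusted p of 0.000644 and an adjusted p of 0.12 by edgeR. Over 13 alternatives the adjusted p ranged between 0.0194, with DESeq2, and 0.235, and without sFlt1 replicate 2 it was 0.0270. Without sFlt1 replicate 3 the log2 fold change within receptors was 1.86. Against all genes the log2 fold change was 1.60 ± 0.59 (SE), the only estimate above 0 at an unadjusted p under 0.05 among the members.

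Olfr1413 (chr1:92499044-92502119), of MOR208, had 17, 34 and 20 counts in sFlt1 mice, against 19, 3 and 1 counts in controls. Per 10000 receptor counts these were 2.28, 1.66 and 2.65 in sFlt1 mice, against 0.911, 0.167 and 0.0513 in controls, and its log2 fold change within receptors was 2.49 ± 0.91 (SE, adjusted p = 0.22 by edgeR). Leaving out 1 library gave 1.99 to 4.23, the highest without control replicate 1, and over 13 alternatives the adjusted p ranged between 0.0558 and 0.562. Olfr427 (chr1:173924457-173930790), of MOR105, had 28, 69 and 45 counts in sFlt1 mice, against 4, 45 and 0 counts in controls. Per 10000 receptor counts it had 3.76, 3.37 and 5.95 in sFlt1 mice, against 0.192, 2.51 and 0 in controls, with no overlap. Its log2 fold change within receptors was 2.27 ± 0.91 (SE, adjusted p = 0.26 by edgeR). Without control replicate 2, the control nearest the sFlt1 mice, the log2 fold change was 5.36 with an adjusted p of 0.00183 by edgeR, the lowest of 13 alternatives whose highest was 0.556. A count of 0, as in control replicate 3, allows up to 3 counts in that library.

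Olfr420, of the same family, had 16.7, 8.94 and 29.6 per 10000 receptor counts in sFlt1 mice, against 3.31, 9.99 and 0.564 in controls, where control replicate 2 lay inside the sFlt1 range. Its log2 fold change within receptors was 1.99 ± 0.77 (SE, adjusted p = 0.24 by edgeR), and it was 3.24 without control replicate 2 and 1.27 without both libraries with Xist reads. MOR105 was thus mixed, as Olfr424 of the same family was at -1.27 ± 0.67 on this scale. Olfr15 had 126, 108 and 151 per 10000 receptor counts in sFlt1 mice, against 97.1, 48.7 and 48.6 in controls, with no overlap and a log2 fold change within receptors of 0.99 ± 0.50 (SE, adjusted p = 0.41 by edgeR).

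The lower genes within receptors were Olfr187, Olfr165 and Olfr177. Olfr187 had 2.42, 6.64 and 2.51 per 10000 receptor counts in sFlt1 mice, against 29.0, 11.9 and 8.77 in controls, with a log2 fold change of -2.08 ± 0.69 (SE, adjusted p = 0.17 by edgeR), and it was -2.74 without sFlt1 replicate 2 and -1.40 without control replicate 1. Olfr165 (chr16:19224994-19241884), of MOR279, had 5, 39 and 4 counts in sFlt1 mice, against 140, 45 and 48 counts in controls, and its log2 fold change within receptors was -1.83 ± 0.74 (SE, adjusted p = 0.265 by edgeR), and it was -2.68 without sFlt1 replicate 2 and -1.19 without control replicate 1. Olfr177 had 5.78, 6.54 and 3.17 per 10000 receptor counts in sFlt1 mice, against 13.0, 11.99 and 13.5 in controls, with a log2 fold change of -1.31 ± 0.64 (SE, adjusted p = 0.40 by edgeR). In all of these the groups did not overlap as shares. Over the 61 members, 5 were lower and 4 were higher in every sFlt1 mouse by share, or 8.20% and 6.56%, beside 10.3% and 6.99% of all receptors tested.

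**Figure D4:**
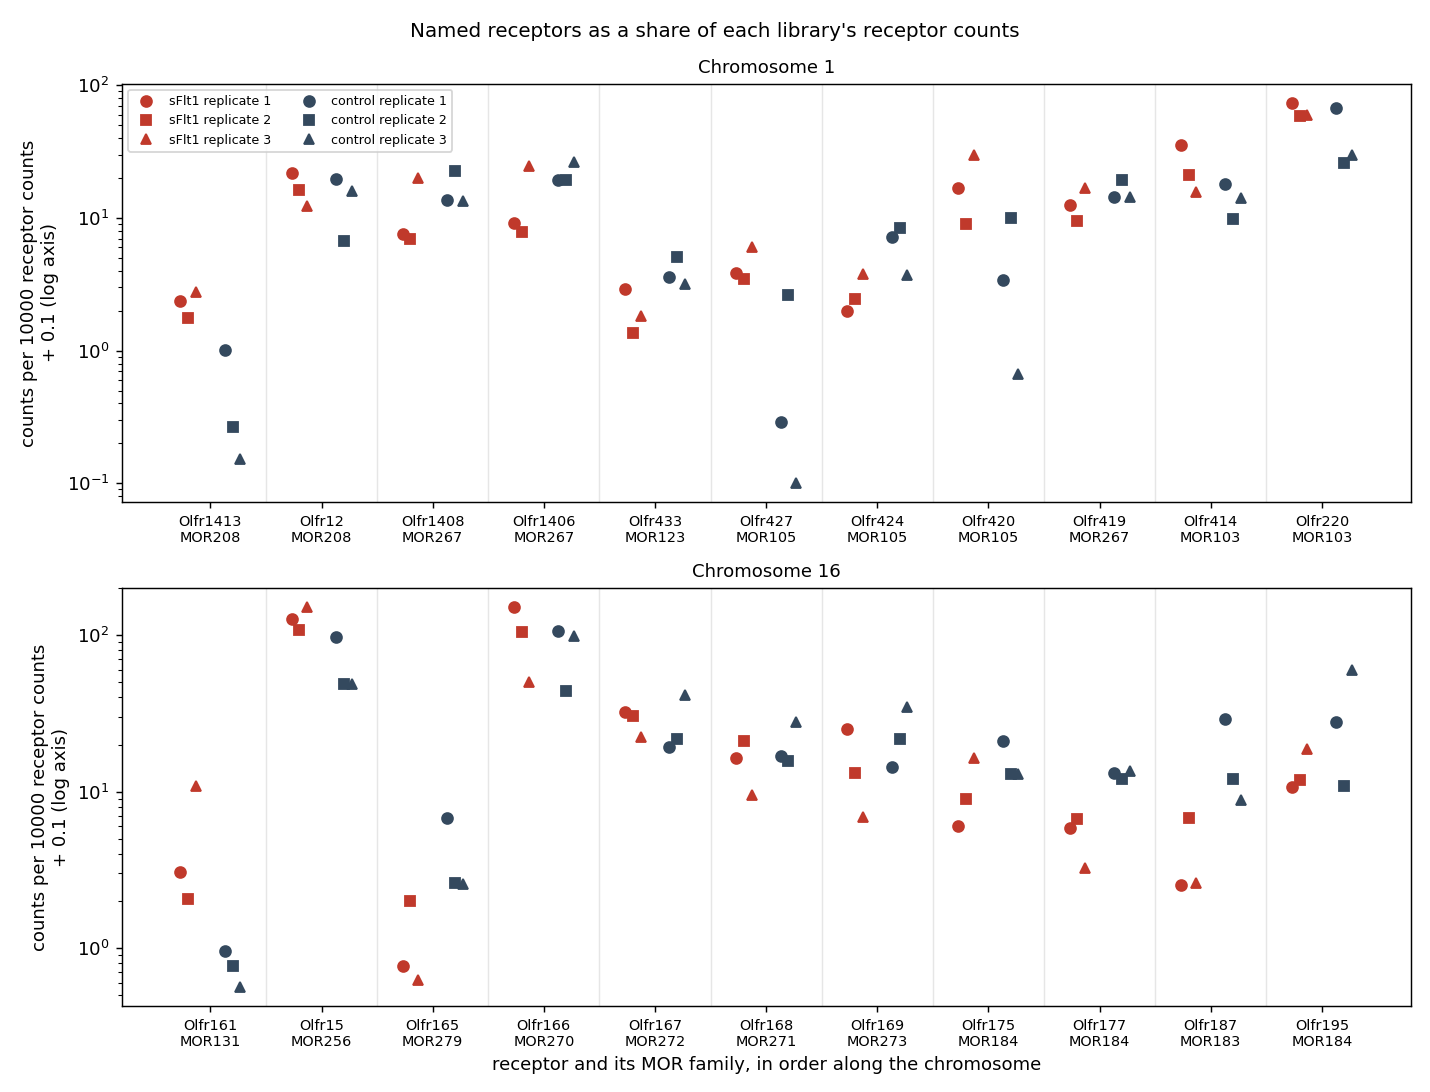
Counts per 10000 receptor counts plus 0.1, on a log axis, of the 22 named receptors in each sFlt1 mouse (red, left of each pair) and each control mouse (dark, right), with the replicate number given by the marker shape. Olfr161, Olfr1413, Olfr427 and Olfr15 lie higher and Olfr433, Olfr165, Olfr177 and Olfr187 lower in all sFlt1 mice.

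By cluster, the shares of receptor counts differed in opposite directions within chromosome 16, whose total share was alike in both groups. Cluster C, of which Olfr15 made up nearly all counts, took 1.29%, 1.10% and 1.62% in sFlt1 replicates 1, 2 and 3, against 0.980%, 0.494% and 0.491% in control replicates 1, 2 and 3. Every sFlt1 mouse was above every control. Cluster F took 1.68%, 2.06% and 1.28% in sFlt1 mice, against 2.70%, 1.86% and 2.71% in controls, where sFlt1 replicate 2 was above control replicate 2. Its level was 52.7 ± 35.7 CPM in sFlt1 mice and 135 ± 28.2 CPM in controls (SD, n = 3 each), or 39.2% of control, with no overlap. Cluster E took 1.84 ± 0.818% in sFlt1 mice and 1.76 ± 0.538% in controls.

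On chromosome 1, cluster A took 0.698 ± 0.153% of receptor counts in sFlt1 mice and 0.758 ± 0.199% in controls, and cluster B took 1.96 ± 0.449% in sFlt1 mice and 1.73 ± 0.273% in controls. MOR103 was the one family found in more than 1 cluster, and its 5 genes, split between A and B, all had estimates above 0 within receptors, with a median of 0.16. The MOR103 share was 1.22 ± 0.225% in sFlt1 mice and 0.857 ± 0.293% in controls, and the groups overlapped. For MOR267 the share was 0.417%, 0.385% and 1.02% in sFlt1 mice, against 0.768%, 0.864% and 0.765% in controls. Replicate 3 of the sFlt1 mice thus stood above all other mice, and the remaining pair of sFlt1 mice below all controls.

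**Figure D5:**
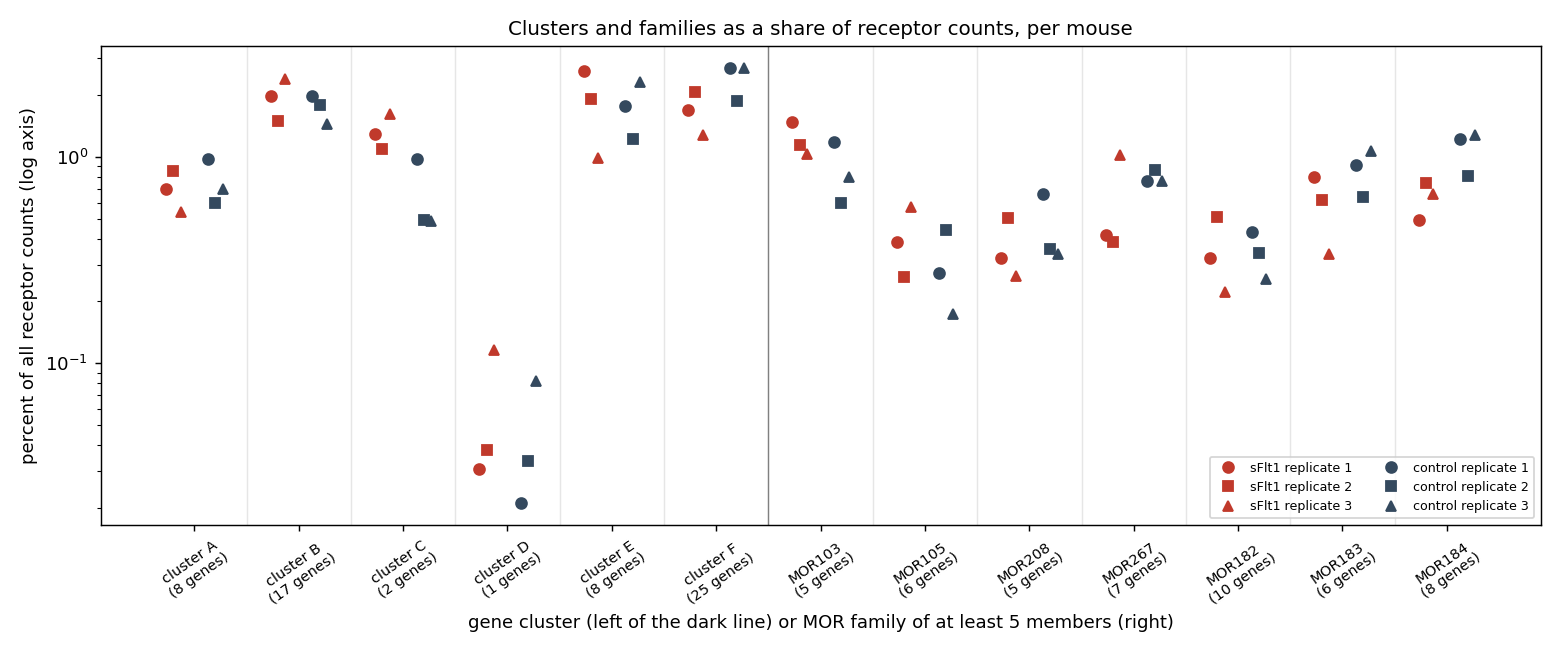
Percent of all receptor counts, on a log axis, taken by each cluster and by each family of at least 5 members, for each sFlt1 mouse (red, left of each pair) and each control mouse (dark, right). Cluster C is higher and MOR184 lower in all sFlt1 mice, and the other groups overlap.

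Nearly every member was detected in every mouse. Olfr194 had a count of 0 in sFlt1 replicate 3 and Olfr427 in control replicate 3, and all other values were above 0, up to 2221 counts. At least 10 counts were present in all 6 libraries for 49 of the 61 genes. After thinning each library to 74429 receptor counts, the expected number of members seen was 61, 61 and 60 in sFlt1 replicates 1, 2 and 3, against 60.8, 60.8 and 59.3 in control replicates 1, 2 and 3. No member was at 0 in every mouse of a group.

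All 12 odor transduction genes were below 0, with a median log2 fold change of -1.14. An unadjusted p under 0.05 was found for 8 of the 12, beside 6.24% of all genes tested that were lower at that threshold. Both edgeR and DESeq2 called 0 of the 12. Gnb1, a G protein beta subunit gene, was at 1296 ± 274 CPM in sFlt1 mice and 2257 ± 285 CPM in controls. Ric8b, which assists the olfactory G protein, was at 349 ± 160 CPM in sFlt1 mice and 878 ± 230 CPM in controls (SD, n = 3 each), with a log2 fold change of -1.33 ± 0.38 (SE, adjusted p = 0.43 by edgeR). Of 10 genes of receptor transport and choice, 6 were below 0 and 4 above, with a median of -0.14, and edgeR and DESeq2 called 0. At an unadjusted p under 0.05, 1 was lower and 2 were higher. The lower one was Reep1, a receptor transport factor, at 48.4 ± 11.95 CPM in sFlt1 mice and 73.9 ± 8.08 CPM in controls. The higher ones, named after their values were seen, were Lbr, a nuclear envelope receptor gene, at 41.96 ± 13.5 CPM in sFlt1 mice and 27.5 ± 1.37 CPM in controls, and Kdm1a, a histone demethylase gene, at 118 ± 38.7 CPM in sFlt1 mice and 77.4 ± 1.38 CPM in controls. The most abundant of the list, Atf5, a factor of the response to receptor choice, was at 855 ± 306 CPM in sFlt1 mice and 1391 ± 364 CPM in controls.

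The list of mature sensory neuron markers is not separate from the lists above. Stoml3, Adcy3, Gnal, Cngb1, Cnga2, Cnga4 and Gng13 are also odor transduction genes, and Rtp1 is also in the transport list. All 12 markers were below 0, with a median of -1.14 and 0 called by edgeR. At an unadjusted p under 0.05 were 7 of them, beside 6.24% of all genes tested that were lower. Summed levels were 3370 to 10107 CPM in sFlt1 mice, against 11612 to 15907 CPM in controls. Omp, the olfactory marker protein gene, was at 1383 ± 952 CPM in sFlt1 mice and 3497 ± 616 CPM in controls. Gfy, of the same list, was at 860 ± 199 CPM in sFlt1 mice and 2255 ± 761 CPM in controls. Per 1000 counts of this list, chromosome 1 receptors had 12.8 ± 2.38 counts in sFlt1 mice and 9.69 ± 1.77 in controls, and chromosome 16 receptors had 23.4 ± 3.20 counts in sFlt1 mice and 18.9 ± 3.84 in controls (SD, n = 3 each), a ratio chosen after the data were seen. In both the groups overlapped. The share of mature neurons in the tissue was not measured apart from these markers, and its part in the receptor levels was not tested.

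Of the 8 immature neuron markers 7 were above 0, with a median of 0.88, and Dpysl3, which acts in growing axons, was at 441 ± 32.0 CPM in sFlt1 mice and 176 ± 90.4 CPM in controls. All 8 markers of globose basal cells and precursors were above 0, with a median of 0.97, and Sox11 and Insm1, both transcription factors of precursors, were at 273 ± 82.8 and 112 ± 19.5 CPM in sFlt1 mice, against 85.1 ± 49.8 and 41.1 ± 21.0 CPM in controls. The 6 horizontal basal cell markers were above 0, with a median of 0.94, and included Krt5 at 89.1 ± 35.5 CPM in sFlt1 mice and 51.7 ± 17.3 CPM in controls and Icam1 at 9.02 ± 4.19 CPM in sFlt1 mice and 3.10 ± 1.25 CPM in controls. Of 7 sustentacular markers tested, 4 were below 0 and 3 above, with a median of -0.01 and 0 at an unadjusted p under 0.05. Sult1c1, at -0.57, was the lowest, and both markers named by rule were above 0, with Cbr2 at 2406 ± 273 CPM in sFlt1 mice and 1716 ± 393 CPM in controls, and Cyp2a5 at 7185 ± 3949 CPM in sFlt1 mice and 6942 ± 2246 CPM in controls. The 6 respiratory ciliated cell markers were above 0, with a median of 0.54, led by Tmem212 at 88.5 ± 31.4 CPM in sFlt1 mice and 22.4 ± 9.52 CPM in controls, and Dnah5 at 388 ± 19.1 CPM in sFlt1 mice and 154 ± 89.7 CPM in controls.

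Brain neuron markers were the most uneven. Their sum was 188, 300 and 277 CPM in sFlt1 replicates 1, 2 and 3, against 481, 521 and 2198 CPM in control replicates 1, 2 and 3. Of the 10, 9 were below 0 with an unadjusted p under 0.05, beside 6.24% of all genes tested that were lower. Eomes was at 6.67 ± 1.73 CPM in sFlt1 mice and 43.4 ± 33.2 CPM in controls, and Syt1 at 133 ± 39.6 CPM in sFlt1 mice and 434 ± 268 CPM in controls. Of 5 vomeronasal markers 4 were tested, with a median of 0.61. Of these, 3 were above 0, namely Calr4 at 1.98, Vmn2r1 at 1.10 and Gnai2 at 0.12 on the log2 scale, and 1 was below 0. That one, Gnao1, the most abundant, was at 215 ± 38.7 CPM in sFlt1 mice and 307 ± 37.4 CPM in controls. Over all 10 lists edgeR called 0 genes, while DESeq2 called 9. Among list genes named, Gnal, Cnga4, Gng13, Rtp1, Atf5, Omp, Krt5, Cbr2, Cyp2a5, Sult1c1, Calr4, Vmn2r1 and Gnai2 had an unadjusted p above 0.05. All other named ones were below that by edgeR. The part of these cell types in the receptor values was not tested. Without control replicate 3 the median receptor estimates were -1.60 on chromosome 1 and -1.08 on chromosome 16, beside -1.28 over all receptors.

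The authors' deposited table of all genes gave an adjusted p under 0.05 to 8 of the 61 receptors, or 13.1%, all lower in sFlt1 mice. Of its genes, 1.11% were lower and 0.446% higher at that threshold. The rate over all receptors of that table was not computed, and the DESeq2 run on all genes given above called 9.85% of all receptors lower. The 8 were Olfr1408, Olfr1406, Olfr433, Olfr424 and Olfr419 on chromosome 1 and Olfr177, Olfr187 and Olfr195 on chromosome 16. In the authors' deposited table of receptor scores, in which counts were rescaled per sample, 1 of the 61 passed, which was Olfr161 with a log2 fold change of 3.495 and an adjusted p of 0.0071, beside 2.69% of receptors higher and 0.434% lower. The same deposited table gave Olfr15 a log2 fold change of 1.35 with an adjusted p of 0.168, and Olfr187 one of -1.85 with an adjusted p of 0.0817.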

How the data were processed

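RNA-seq of the olfactory epithelium was used from 3 sFlt1 and 3 control mice, 1 library a mouse. Per the submitters' processing notes, the tools were HTSeq 2.0.1, TopHat2 2.2.1, DESeq2 1.26.0 and cutadapt 3.5, and the build was GRCm39; how strand and multimapping reads were treated is not stated there. The deposited gene table, per the file headers, holds raw counts per gene, and the authors' log2 fold changes and adjusted p-values of all genes. The authors' receptor table repeats the receptor counts. A separate deposited table of receptor scores holds rescaled values with their own log2 fold changes and adjusted p-values. Columns of per-sample values not used numbered 36. Of 55414 rows, 6250 held no values and 49164 held counts.

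From the counts, edgeR 4.0.16 (R 4.3.3) fitted quasi-likelihood models after filterByExpr, once on all genes with TMM scaling and once on receptors with library sizes set to summed receptor counts. P-values were Benjamini-Hochberg adjusted over all features tested, at a threshold of 0.05. CPM are per 1000000 TMM-scaled counts. The p-values measure only the spread between these mice. DESeq2 1.42.0, other scalings, no filter, the replicate block and left-out libraries were the alternatives. The fits were tested on simulated counts with changes set in advance. The simulated spread between mice followed the trend over the genes of the fit, not each gene's own spread, so the rates may differ for the members. At an absolute log2 fold change of 2, the all-gene fit called 53.6% of the changed genes and the fit within receptors 60.6%. At 3 they called 76.5% and 88.4%, so changes of this size can be missed. Of unchanged genes they called 0.0207% and 0.355%. Named members were, per chromosome, the 6 with the highest mean CPM and the 4 with the smallest p in each fit, plus any that passed. From each list of other genes, the gene with the smallest p, the one with the highest mean CPM, and Omp were named. Olfr193 carries conflicting family names and was given none. MOR families came from RefSeq synonyms and sequences from GENCODE vM21 (GRCm38). Members and lists were chosen with earlier results of these data known. Some of the stretches around Asp-Arg-Tyr are not reported here.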

Additional observations from a re-analysis of the deposited data

How the results depend on the processing

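With 3 mice a group, 1 library decides many values, and 10 of 36 chromosome 16 members have under 10 counts in some library. With DESeq2, 9 members were called against all genes and 1 within receptors, where edgeR called 0. Leaving out 1 library gave 0 calls against all genes in every case and 0 to 1 within receptors, the call being Olfr161 without sFlt1 replicate 2 and Olfr427 without control replicate 2. The all-gene median then ranged from -1.60 to -0.90 on chromosome 1 and from -1.90 to -0.67 on chromosome 16, and the median within receptors from -0.35 to 0.12 and from -0.58 to -0.066. Without both libraries with Xist reads the chromosome 1 median was -0.70 against all genes and -0.25 within receptors, and TMM over receptors put the chromosome 1 median within receptors at 0.17. As ratios to mature neuron marker counts, the summed levels had log2 ratios of 0.40 on chromosome 1 and 0.30 on chromosome 16, opposite to those in CPM. In these cases the cause was not tested.

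The labels do not say that mice of the same replicate number are paired. Correlations of same-numbered deviations were 0.026, 0.246 and 0.357, and those of differently numbered ones ran from -0.417 to 0.289. So few correlations cannot decide whether the numbers pair the mice. With the replicate block, 0 members were called in either fit, the chromosome 1 medians were -1.34 against all genes and -0.32 within receptors, and Olfr15 was at 0.030 against all genes.

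Signs turned for members near 0. Over the left-out libraries, the log2 fold change against all genes ranged from -0.68 to 0.36 for Olfr220, from -0.40 to 0.25 for Olfr414 and from -0.35 to 0.48 for Olfr15. Within receptors it ranged from -0.070 to 0.58 for Olfr12, from -0.10 to 0.63 for Olfr166 and from -0.17 to 0.47 for Olfr167. With both Xist libraries left out, the all-gene value was 0.63 for Olfr220, 0.60 for Olfr414, 0.23 for Olfr12, 0.30 for Olfr166 and 0.64 for Olfr15, and that of Olfr167 within receptors was -0.019. Of the other values for single members, 518 kept their direction and side of the threshold and 12 came past it.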

Other observations

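Receptor models left out of the set lie among the members. Olfr188-ps1, a transcribed pseudogene model in cluster F, had 74, 92 and 50 counts in sFlt1 replicates 1, 2 and 3, against 29, 18 and 44 counts in control replicates 1, 2 and 3. All sFlt1 mice were above all controls in raw counts, which are not scaled for library size. By another measure, the estimates of the fit on all genes, 24 of the 25 members of cluster F were below 0. Olfr192, annotated as a polymorphic pseudogene in the same cluster, had 31, 67 and 16 counts in sFlt1 mice, against 313, 233 and 11 counts in controls. Olfr197, another polymorphic pseudogene there, had 10, 20 and 32 counts in sFlt1 mice, against 96, 86 and 0 counts in controls. In both genes control replicate 3 stood apart from the other controls. Olfr16, the chromosome 1 receptor left out by rule, had 27, 127 and 62 counts in sFlt1 mice, against 221, 312 and 179 counts in controls, with no overlap. None of these values was tested.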
